A study of Homo sapiens with 6 samples.

Results

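The MYC, MAX and MXD network was followed in 253J, a cell line of human bladder cancer, after transfection with control siRNA or with FTO siRNA (siFTO). The 10 members MYC, MYCN, MYCL, MAX, MXD1, MXD3, MXD4, MXI1, MNT and MLX were chosen by gene symbol and matched by Ensembl ID to 10 of the 60483 gene IDs listed. FTO removes methyl groups from N6-methyladenosine in RNA, and the comparison asked how transcript levels of the network stood when FTO was lowered. RNA-seq was read from 3 control libraries (replicates 1, 2 and 3) and 3 siFTO libraries (replicates 4, 5 and 6), all from the same cell line, with no other allele or agent in the labels. The labels name siRNA, whereas the methods of the study describe short hairpin RNAs against FTO, and neither the sequence used nor the time after transfection is in the labels. Nothing in the labels says that the libraries of a group came from separate cultures, and the p-values below therefore describe spread among 6 libraries that may be purely technical.

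MYC, MYCN and MYCL are transcription factors that bind DNA only as partners of MAX and mainly raise transcription of genes for growth, ribosome assembly and metabolism. MXD1, MXD3, MXD4, MXI1 and MNT compete for MAX, bind the same E-box letters CACGTG and recruit SIN3 and histone deacetylases, which lowers transcription. MLX stands at the edge of the network, where it pairs with MLXIP and MLXIPL, which respond to glucose, and with some MXD proteins and MNT. MYC is often raised in bladder cancer and other epithelial tumours.

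FTO, the targeted gene, had 31.8, 21.4 and 31.2 CPM (counts relative to the total of a library, scaled by TMM) in control replicates 1, 2 and 3 and 20.2, 20.7 and 15.7 CPM in siFTO replicates 4, 5 and 6. Every siFTO library lay below every control library, with a log2 difference of -0.57 (SE 0.16, adjusted p = 0.0209, edgeR quasi-likelihood test with Benjamini-Hochberg adjustment). Without control replicate 1 the FTO difference was -0.49 (adjusted p = 0.107 in edgeR), and without control replicate 3 it was -0.49 (adjusted p = 0.113 in edgeR). With library totals in place of TMM the FTO difference was -0.46 (adjusted p = 0.0576 in edgeR). Total counts ranged from 10991789 to 19891269 in the controls and from 13162731 to 15709975 in siFTO. Genes that mark epithelia were abundant in every library, from 8124 to 11496 CPM summed over 5 markers, with KRT8 and KRT18 the highest. Of 11 urothelial markers UPK1B was at 0 in every library, UPK1A, UPK2, UPK3A, GATA3, TP63 and KRT5 stayed under 1 CPM, and the sum of 145 to 200 CPM was mainly FOXA1 and PPARG, whereas 6 intestinal markers, led by LGALS4 and VIL1, summed to 1018 to 1248 CPM. Within the intestinal list KRT20 rose by 2.43 on the log2 scale (adjusted p = 4.6e-05 in edgeR). CDX2 fell by 0.78 (adjusted p = 0.000832 in edgeR) and LGALS4 by 0.28 (adjusted p = 0.0485 in edgeR), and the other 3 did not pass. LGALS4 lost its call in 5 of 6 fits without a library, with adjusted p up to 0.189 in edgeR. Its difference was -0.12 without siFTO replicates 4 and 5. Replicates 4 and 5 of siFTO stood apart from the other libraries: 11 fibroblast markers summed to 980 and 1176 CPM there, against 22.3 to 24.9 CPM in the controls and 34.8 CPM in siFTO replicate 6, led by VIM and COL1A1. COL1A2 (121 and 156 CPM), COL5A1 (58.8 and 78.0 CPM) and FAP (4.53 and 5.04 CPM) were also higher there than in the other libraries. COL3A1, PDGFRA and THY1 were near 0 even there, with at most 2 counts per library. DCN and LUM were under 1.5 CPM, and PDGFRB had a log2 difference of 0.01. In the same libraries 8 leukocyte markers summed to 73.6 and 87.8 CPM, against 4.08 to 6.49 CPM elsewhere, led by CD74 and CSF1R, while PTPRC, the gene for the common leukocyte antigen CD45, had 1 and 0 counts, CD68 and LYZ stayed under 0.4 CPM, and CD3E and MS4A1 were at 0 in every library. The 5 endothelial markers, led by PECAM1 and KDR, summed to at most 2.69 CPM. Each member is therefore also given without both of these libraries, and the part of these markers in the results was not tested. In bulk RNA, fewer cells of a type and less RNA per cell cannot be told apart.

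Promoter sequence was read from RefSeq windows of GRCh38.p14, each covering the 250 bases before a transcription start, and 12 windows matched 9 members. No window was available for MYC, so its promoter was not searched. The E-box CACGTG, which reads the same on both strands, was found in 3 of these 12 windows, against 6.34% of 35116 windows of the same length, and the variant CACGCG, searched on both strands, was in 0 of 12, against 9.72% of all windows. The matches lay before MXD4, MNT and MLX, and are shown because MYC, MXD and MNT proteins paired with MAX, and MLX dimers, read these letters. Capitals mark the E-box, and its centre lies 235 bases before the start of MXD4 (chr4:2262312-2262359, minus strand), 190 before that of MNT (chr17:2401218-2401283, minus strand) and 47 before that of MLX (chr17:42567020-42567085, plus strand).
MXD4: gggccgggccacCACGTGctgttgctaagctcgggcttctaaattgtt
MNT: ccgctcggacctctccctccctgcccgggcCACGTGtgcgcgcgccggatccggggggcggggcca
MLX: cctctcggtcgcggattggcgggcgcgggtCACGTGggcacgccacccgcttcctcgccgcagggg

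The 3 members whose transcripts changed, MXD1, MXD3 and MYCL, had neither set of letters in their windows, which says only that these letters are not in these bases. The last 100 bases before their starts follow, for MXD1 at chr2:69915009-69915108 on the plus strand, for MXD3 at chr5:177312753-177312852 on the minus strand and for MYCL at chr1:39901918-39902017 on the minus strand, with no letter in capitals.
MXD1: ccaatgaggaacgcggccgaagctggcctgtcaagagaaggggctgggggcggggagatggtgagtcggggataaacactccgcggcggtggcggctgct
MXD3: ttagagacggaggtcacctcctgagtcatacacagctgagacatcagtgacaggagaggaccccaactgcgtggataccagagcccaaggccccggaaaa
MYCL: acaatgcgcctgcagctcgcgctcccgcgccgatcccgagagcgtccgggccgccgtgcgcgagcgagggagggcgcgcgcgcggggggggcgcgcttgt

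Across the network, MXD1 rose, MXD3 and MYCL fell, and 6 members did not pass the test. MYCN had too few counts to be tested, so 3 of 9 tested members (33.3%) were called at an adjusted p under 0.05, against 37.4% of the 14965 genes tested. A single member was called higher, where the background was 19.5%, and 2 were called lower, where the background was 17.9%. The CPM of the groups did not overlap for 4 of 9 tested members (44.4%), MYCL, MAX, MXD1 and MXD3, against 51.4% of all genes tested. The members' median log2 difference was 0.055, beside 0.0057 over all genes tested. The shares called and not overlapping were thus both a little below the background.

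**Figure D1:**
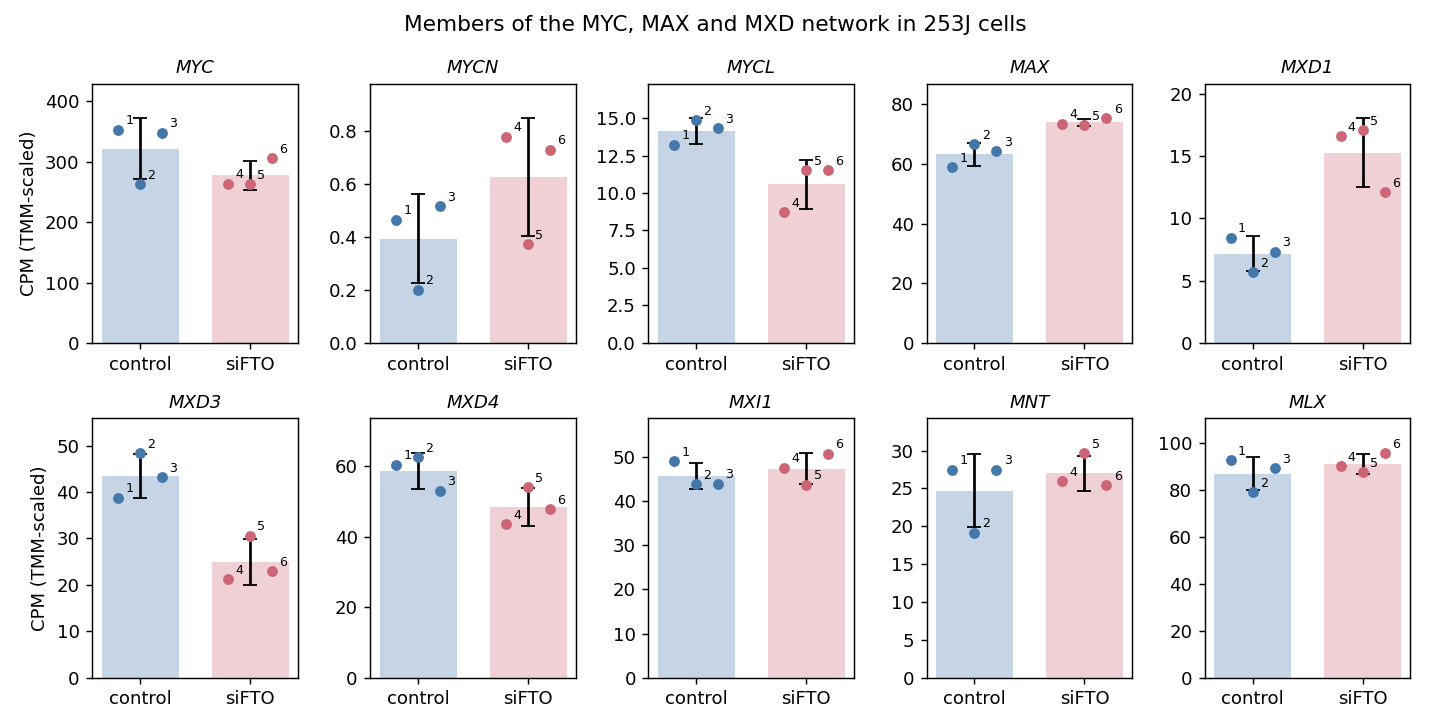
CPM (TMM-scaled, linear axis from 0, a separate scale for each gene) of the 10 members in each control and siFTO library, with points numbered by replicate, bars for the group mean and error bars for 1 SD. MXD1 stood at 12.1 to 17.1 CPM in siFTO above 5.69 to 8.47 CPM in control, and MXD3 at 21.2 to 30.6 CPM below 38.8 to 48.4 CPM.

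MXD1 (ENSG00000059728.9), also known as MAD1, is a MAX partner that is raised in many cells as they stop dividing and differentiate. It had 8.47, 5.69 and 7.34 CPM in control replicates 1, 2 and 3 and 16.6, 17.1 and 12.1 CPM in siFTO replicates 4, 5 and 6, from 85 to 142 counts per control library and 166 to 275 per siFTO library. All siFTO libraries lay above all controls, with replicate 6 the lowest of them. MXD1 rose 2.14-fold, a log2 difference of 1.10 (SE 0.19, adjusted p = 0.00220, edgeR with Benjamini-Hochberg adjustment). Without siFTO replicates 4 and 5, the libraries high in VIM and COL1A1, the MXD1 difference was 0.77 (adjusted p = 0.0444 in edgeR, with the lone siFTO library assumed to vary like the controls). It passed the test under each of 16 alternatives, with log2 differences from 0.77 to 1.23. The gene lies at chr2:69897688-69942945 on the plus strand in GENCODE 29 on GRCh38, a build other than the hg19 and GRCh37 named in the submitters' processing notes. The RefSeq bases shown above (chr2:69915009-69915108) lie inside that span, before a start downstream of the GENCODE one. MXD1 overlaps SNRNP27 on the same strand in GENCODE 29. SNRNP27, a gene for a spliceosomal protein, had a mean of 23.6 CPM in control and 28.6 CPM in siFTO. It was itself called higher, with a log2 difference of 0.28 (adjusted p = 0.0437 in edgeR).

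MXD3 (ENSG00000213347.9), the MXD family member that is highest in cells in S phase, moved the opposite way. Its level was 38.8, 48.4 and 43.1 CPM in control replicates 1, 2 and 3 and 21.2, 30.6 and 22.9 CPM in siFTO replicates 4, 5 and 6. The highest siFTO library, replicate 5, stayed below the lowest control. MXD3 fell by 0.80 on the log2 scale (SE 0.14, adjusted p = 0.00267, edgeR with Benjamini-Hochberg adjustment). The difference was -0.93 without siFTO replicates 4 and 5 (adjusted p = 0.00754 in edgeR), and it passed the test under all 16 alternatives, from -0.98 to -0.68. In GENCODE 29 (chr5:177301461-177312757, minus strand) MXD3 overlaps RAB24 on the same strand and PRELID1 on the other. RAB24, a small GTPase gene, had means of 3.91 and 2.68 CPM in control and siFTO, a log2 difference of -0.55, and PRELID1, a gene for a mitochondrial lipid transfer protein, had 112 and 105 CPM, a log2 difference of -0.09. The strand setting of the counting is not given in the sources used here, so reads of overlapping genes may not be fully separated.

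The other antagonists did not pass the test, which does not show that they stayed level. MXD4, also known as MAD4, had 60.5, 62.6 and 53.0 CPM in the controls and 43.5, 54.1 and 47.8 CPM in siFTO. Only siFTO replicate 5 reached into the control range, above control replicate 3. The log2 difference of MXD4 was -0.27 (SE 0.11, adjusted p = 0.0698, edgeR with Benjamini-Hochberg adjustment). Without siFTO replicate 5 it was -0.36 (adjusted p = 0.0413 in edgeR), and MXD4 also passed with an offset for gene length and GC content (-0.34, adjusted p = 0.0223 in edgeR) and with upper-quartile scaling (-0.30, adjusted p = 0.0478 in edgeR). Without siFTO replicates 4 and 5 its difference was -0.29 (adjusted p = 0.229 in edgeR).

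MXI1, also known as MAD2, had 49.0, 43.9 and 43.9 CPM in the controls and 47.6, 43.7 and 50.7 CPM in siFTO. Its groups overlapped almost fully, and the log2 difference was 0.06 (SE 0.10, adjusted p = 0.674, edgeR with Benjamini-Hochberg adjustment). MNT, the antagonist that is made in dividing and resting cells alike, had 27.4, 19.2 and 27.5 CPM in the controls and 26.0, 29.7 and 25.4 CPM in siFTO. Control replicate 2 stood below all other libraries, and the log2 difference of MNT was 0.13 (SE 0.14, adjusted p = 0.494, edgeR with Benjamini-Hochberg adjustment). Over the 16 alternatives the difference of MXI1 ranged from -0.07 to 0.18 and that of MNT from -0.02 to 0.25, so neither had a settled direction. Without siFTO replicates 4 and 5 the difference was 0.16 for MXI1 (adjusted p = 0.513 in edgeR) and 0.05 for MNT (adjusted p = 0.903 in edgeR).

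Per length, the size of the antagonist pool against the MYC family overlapped between the groups, whereas its makeup in MXD1 and MXD3 did not. Counts per kb of union exon length were summed over MXD1, MXD3, MXD4, MXI1 and MNT and divided by the sum over MYC, MYCN and MYCL in each library. The ratio was 0.259, 0.340 and 0.250 in the controls and 0.291, 0.324 and 0.259 in siFTO. The groups overlapped, with means of 0.283 ± 0.050 (SD, n = 3) and 0.291 ± 0.033 (SD, n = 3). MXD1 made up 4.27%, 2.90% and 3.89% of the pool in the controls and 9.99%, 9.23% and 7.04% in siFTO, a mean of 3.69% ± 0.704 (SD, n = 3) against 8.75% ± 1.53 (SD, n = 3). MXD3 made up 24.1%, 30.4% and 28.2% in the controls and 15.7%, 20.3% and 16.4% in siFTO, a mean of 27.6% ± 3.19 (SD, n = 3) against 17.5% ± 2.49 (SD, n = 3). Neither share overlapped between the groups. The shares of MXD4, with means of 27.1% in control and 24.9% in siFTO, and of MXI1, with 32.3% and 37.6%, did overlap, whereas that of MNT, 9.26% and 11.3%, did not, by a narrow margin of 10.6% in control replicate 3 to 10.8% in siFTO replicate 6. A ratio chosen after the values were seen, MXD1 over MXD3, was 0.177, 0.0955 and 0.138 in the controls and 0.636, 0.454 and 0.429 in siFTO, with means that differed 3.70-fold. These ratios are within a library and do not depend on the scaling between libraries, and no test was made of them.

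**Figure D2:**
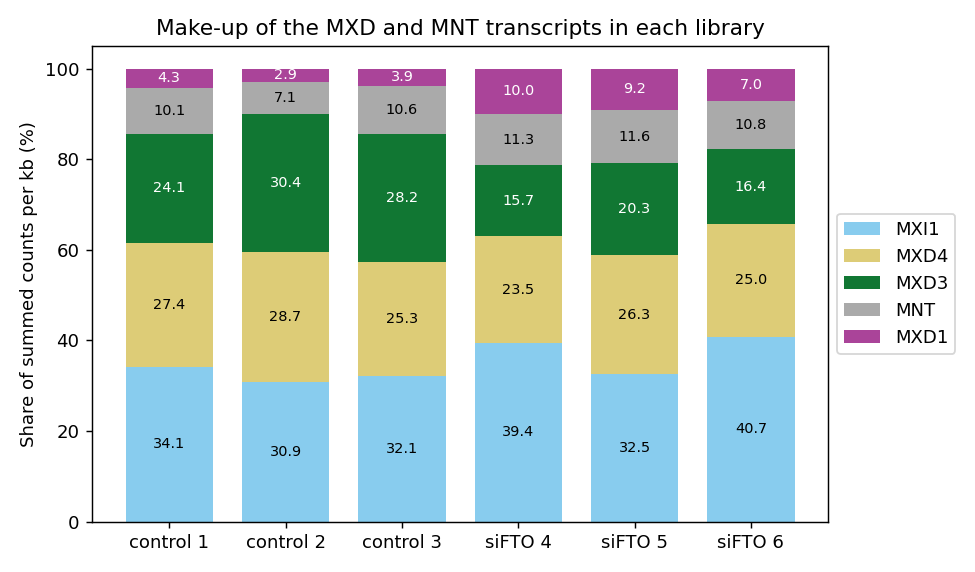
Share of each antagonist in the summed counts per kb of MXD1, MXD3, MXD4, MXI1 and MNT (percent, stacked to the whole) in each control and siFTO library. The MXD1 share was 2.90% to 4.27% in control and 7.04% to 9.99% in siFTO, and the MXD3 share was 24.1% to 30.4% in control and 15.7% to 20.3% in siFTO.

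Of the activators, MYC was by far the most abundant and overlapped between the groups. MYC (ENSG00000136997.13) had 353, 263 and 348 CPM in control replicates 1, 2 and 3 and 264, 263 and 306 CPM in siFTO replicates 4, 5 and 6. Control replicate 2 lay among the siFTO libraries. The log2 difference of MYC was -0.21 (SE 0.12, adjusted p = 0.193, edgeR with Benjamini-Hochberg adjustment). Without control replicate 2 it was -0.34 (adjusted p = 0.0426 in edgeR), and without siFTO replicates 4 and 5 it was -0.07 (adjusted p = 0.822 in edgeR), the ends of the range over the 16 alternatives.

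MYCL (ENSG00000116990.10), the family member first found amplified in small cell lung cancer, had 13.2, 14.9 and 14.3 CPM in the controls and 8.70, 11.5 and 11.5 CPM in siFTO, from 123 to 277 counts per library. The groups did not overlap, and siFTO replicate 4 was the lowest library. MYCL fell by 0.42 on the log2 scale (SE 0.15, adjusted p = 0.0440, edgeR with Benjamini-Hochberg adjustment), close to the threshold. The call ended without control replicate 1, 2 or 3 (adjusted p = 0.0891, 0.132 and 0.123 in edgeR) and without siFTO replicate 4 or 5 (0.161 and 0.0548). The differences in those fits were -0.47, -0.38, -0.41, -0.30 and -0.48, and without siFTO replicates 4 and 5 together it was -0.30 (adjusted p = 0.325 in edgeR). MYCL was also not called by DESeq2 (-0.42, adjusted p = 0.0559), with no filter on low counts (-0.42, adjusted p = 0.0846 in edgeR) or with library totals in place of TMM (-0.30, adjusted p = 0.127 in edgeR).

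MYCN (ENSG00000134323.10), the family member amplified in neuroblastoma, was near the limit of detection. It had 5, 3 and 10 counts in the controls and 11, 6 and 10 in siFTO, or 0.20 to 0.52 CPM and 0.37 to 0.78 CPM, and the filter on low counts removed it. The groups overlapped. MYCN was kept in 6 of the alternatives, where its log2 difference was from 0.33 to 0.94 and its adjusted p from 0.199 to 0.688 in edgeR, with 0.86 (adjusted p = 0.458) without siFTO replicates 4 and 5, so a difference was not detectable at this depth. MYC made up a mean of 0.973 of the counts per kb of the 3 activators in control and 0.975 in siFTO.

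MAX (ENSG00000125952.17), the shared partner of all activators and antagonists named here, had 59.0, 66.6 and 64.3 CPM in the controls and 73.6, 73.0 and 75.3 CPM in siFTO. Each siFTO library lay above each control, yet the log2 difference of 0.22 (SE 0.08) gave an adjusted p = 0.0589 in the edgeR test. MAX passed the test only when library totals replaced TMM (0.35, adjusted p = 0.0102 in edgeR), a scaling that raised the median of all genes by 0.12. The MAX difference was 0.25 without siFTO replicates 4 and 5 (adjusted p = 0.264 in edgeR). Against the summed counts per kb of the MYC family and the antagonists, MAX was at 0.0878, 0.124 and 0.0976 in the controls and 0.143, 0.138 and 0.129 in siFTO. This ratio did not overlap between the groups, and its means differed 1.33-fold. Against the MYC family alone, MAX was at 0.111, 0.166 and 0.122 in the controls and 0.185, 0.183 and 0.163 in siFTO. That ratio did overlap, with control replicate 2 above siFTO replicate 6, and its means also differed 1.33-fold. MAX (chr14:65006174-65102695, minus strand, GENCODE 29 on GRCh38) overlaps FNTB on the other strand, a gene for a farnesyltransferase subunit. FNTB had means of 17.3 CPM in control and 11.7 CPM in siFTO, a log2 difference of -0.56 (adjusted p = 0.00569 in edgeR).

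MLX (ENSG00000108788.10) had 92.6, 78.9 and 89.1 CPM in the controls and 90.0, 87.5 and 95.6 CPM in siFTO. The groups overlapped, with a log2 difference of 0.07 (SE 0.09, adjusted p = 0.571, edgeR with Benjamini-Hochberg adjustment) that was 0.14 without siFTO replicates 4 and 5 (adjusted p = 0.547 in edgeR). Its partners moved unequally. MLXIPL, which encodes the glucose-responsive factor ChREBP, had 56.0, 71.8 and 56.8 CPM in the controls and 29.6, 35.7 and 35.8 CPM in siFTO. The groups were far apart, and MLXIPL fell by 0.87 on the log2 scale (SE 0.12, adjusted p = 0.00109, edgeR with Benjamini-Hochberg adjustment), with -0.78 without siFTO replicates 4 and 5 (adjusted p = 0.0158 in edgeR). MLXIP, which encodes the related factor MondoA, had 65.1, 61.2 and 64.6 CPM in the controls and 71.2, 69.0 and 73.2 CPM in siFTO. MLXIP did not pass the test (0.16, SE 0.08, adjusted p = 0.145 in edgeR), although its groups did not overlap. The ratio of MLXIPL to MLXIP in counts per kb was 2.48, 3.39 and 2.54 in the controls and 1.20, 1.49 and 1.41 in siFTO, above 1 in every library. This order rests on the division by union exon length, since in counts the ratio was 0.860, 1.17 and 0.879 in the controls and 0.417, 0.518 and 0.489 in siFTO.

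**Figure D3:**
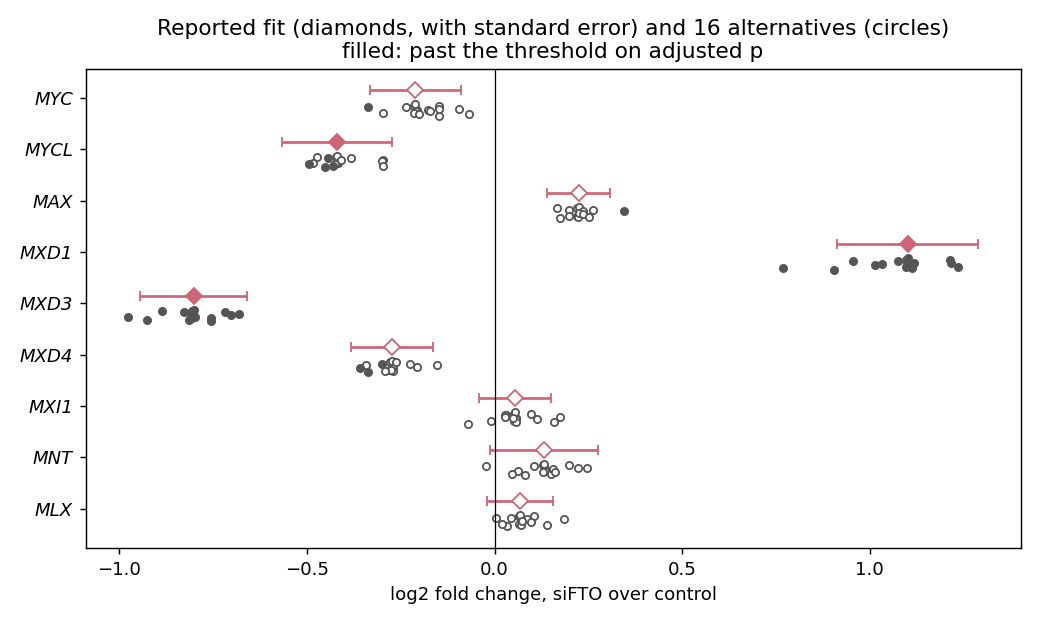
Log2 difference, siFTO minus control, of the 9 tested members in the reported fit (diamonds, with bars for 1 standard error) and under 16 alternatives in scaling, filter, test, threshold and libraries (circles), filled where the adjusted p passed the threshold of that fit. MXD1 (0.77 to 1.23) and MXD3 (-0.98 to -0.68) stayed on their side of 0 and past the threshold throughout, whereas MYCL (-0.50 to -0.30) kept its direction and passed in some fits only.

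Per length, the order of the members was nearly the same in both groups. RPKM, the CPM divided by the union exon length in kb, had a mean of 107 ± 16.8 (SD, n = 3) for MYC in control and 92.5 ± 8.17 (SD, n = 3) in siFTO. MLX followed with 20.4 ± 1.67 RPKM in control and 21.4 ± 0.972 in siFTO, and MAX with 14.3 ± 0.879 and 16.7 ± 0.271. In the controls MXI1 (9.90 ± 0.643), MXD3 (8.43 ± 0.929) and MXD4 (8.31 ± 0.711) came next, and the last 2 of these did not differ beyond their spread. In siFTO MXI1 stood at 10.3 ± 0.764, MXD4 at 6.87 ± 0.754 and MXD3 at 4.83 ± 0.969. MNT (2.83 ± 0.550) and MYCL (2.79 ± 0.167) were level in control, above MXD1 (1.13 ± 0.220) and MYCN (0.152 ± 0.065). In siFTO MNT was at 3.10 ± 0.263, MXD1 at 2.41 ± 0.434, MYCL at 2.09 ± 0.320 and MYCN at 0.241 ± 0.085, where the ranges of MXD1 and MYCL overlapped. By the group means MXD3 and MXD4 changed places, as did MYCL and MXD1, but not in each library: MXD4 already lay above MXD3 in control replicate 1 (8.57 against 7.53 RPKM), and MYCL still lay above MXD1 in siFTO replicate 6 (2.27 against 1.91 RPKM). MYC lay at the 97.3 percentile of the genes tested by control RPKM, and MXD1 at the 21.9 percentile.

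Genes with profiles like those of MXD1 and MXD3 were sought among 10355 genes by the root mean square difference of log2 CPM over the 6 libraries, each gene centred on its own mean. Nearest to MXD1 were RASAL2, a Ras GTPase-activating protein gene, at 0.0353, SEC24D, a coat protein gene of vesicles that leave the endoplasmic reticulum, at 0.0549, and ZBTB43, a zinc finger gene, at 0.0637. RASAL2 had 9.58, 6.23 and 8.11 CPM in the controls and 19.2, 19.3 and 14.2 CPM in siFTO, with the same lowest library in each group as MXD1. Nearest to MXD3 were COX8A, a gene for a subunit of cytochrome c oxidase, at 0.0530, OR7E38P, a pseudogene of the olfactory receptor family, at 0.0601, and INAFM1 at 0.0741. COX8A had 115, 150 and 127 CPM in the controls and 70.7, 95.9 and 71.1 CPM in siFTO, again with the highest library of each group at replicates 2 and 5. RASAL2 and COX8A were chosen for likeness over these same 6 libraries, so the shared lowest or highest libraries follow from that choice. Counts of OR7E38P are uncertain, since near-identical copies of that family can share reads.

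The genes around the network were described by lists, each beside the 19.5% of all tested genes that were called higher and the 17.9% called lower. Those shares belong to the reported fit. Library totals in place of TMM called 4088 of 14965 genes higher and 1787 lower. The offset for gene length and GC content called 2110 of 14887 genes higher and 2987 lower. List counts under these settings below stand beside those of all genes, which shifted too. Of 5 other partners MGA, which pairs with MAX and joins a Polycomb complex, rose and MLXIPL fell, while BIN1, MLXIP and ZBTB17 did not pass the test. MGA had 23.6, 19.1 and 22.8 CPM in the controls and 32.8, 28.5 and 33.8 CPM in siFTO. All siFTO libraries lay above all controls, with a log2 difference of 0.54 (SE 0.12, adjusted p = 0.00595, edgeR with Benjamini-Hochberg adjustment) that was 0.18 with an offset for gene length and GC content (adjusted p = 0.231 in edgeR). The MGA difference was 0.63 without siFTO replicates 4 and 5 (adjusted p = 0.0270 in edgeR). The median log2 difference of these partners was 0.12, and -0.01 with that offset.

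Of 15 coactivators recruited by MYC, 3 rose and 3 fell in the edgeR test, with a median log2 difference of 0.03. SMARCB1, a subunit of SWI/SNF remodellers, fell by 0.54 on the log2 scale (SE 0.08), KAT2A, an acetyltransferase, by 0.36 (SE 0.08) and the helicase RUVBL2 by 0.40 (SE 0.10). The cyclin CCNT1 rose by 0.41 (SE 0.09) and the acetyltransferases EP300 and CREBBP by 0.51 (SE 0.14) and 0.35 (SE 0.11). RUVBL1 and WDR5, the most abundant that did not pass, had -0.13 and 0.19. RUVBL2 lost its call without control replicate 3 (adjusted p = 0.0564 in edgeR) or siFTO replicate 4 (0.0623), EP300 without control replicate 1 (0.0678) or siFTO replicate 4 (0.0532), and CREBBP in 4 of 6 fits without a library, control replicates 1 and 2 and siFTO replicates 4 and 5, where its adjusted p reached 0.0835. The other 3 kept theirs in each such fit. Without siFTO replicates 4 and 5 together, the differences of the called genes kept their signs. They were -0.45 for SMARCB1, -0.29 for KAT2A, -0.32 for RUVBL2, 0.45 for CCNT1, 0.53 for EP300 and 0.32 for CREBBP. With a lone siFTO library that fit called fewer of all genes, so calls of this list are not counted in it. With the offset for gene length and GC content 0 of the 15 coactivators were called higher and 4 lower, with a median of -0.06, and the differences were 0.17 for CCNT1 (adjusted p = 0.141 in edgeR), 0.29 for EP300 (0.0816) and 0.14 for CREBBP (0.283). Library totals in place of TMM, which called more of all genes higher, gave 6 higher and 3 lower.

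Of 10 corepressors recruited by MXD and MNT, 0 rose and 2 fell, with a median log2 difference of -0.05. These were the histone deacetylase HDAC1 (-0.26, SE 0.09, adjusted p = 0.0391, edgeR with Benjamini-Hochberg adjustment) and the histone-binding protein RBBP7 (-0.25, SE 0.08, adjusted p = 0.0365). Both lost the call in 5 of 6 fits without a library, all but that without siFTO replicate 6, where the adjusted p reached 0.139 for HDAC1 and 0.140 for RBBP7. The offset for length and GC content gave 0 higher and 4 lower, and library totals gave 1 higher and 0 lower. SAP18 and RBBP4 did not pass (-0.11 and -0.09), nor did SIN3A (0.03), the scaffold named here after its value was seen.

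Of 13 regulators of MYC protein turnover, 3 rose and 1 fell in the edgeR test, with a median log2 difference of 0.14. CIP2A, which shields MYC from the phosphatase PP2A, had 23.3, 23.6 and 27.2 CPM in the controls and 43.3, 35.4 and 40.7 CPM in siFTO. The groups did not overlap, and CIP2A rose by 0.68 on the log2 scale (SE 0.11, adjusted p = 0.00185, edgeR with Benjamini-Hochberg adjustment), with 0.72 without siFTO replicates 4 and 5 (adjusted p = 0.0138 in edgeR). USP36, a nucleolar deubiquitinase, rose by 0.38 (SE 0.09, adjusted p = 0.00880 in edgeR), and its call ended without control replicate 1 (0.33, adjusted p = 0.0535). The ubiquitin ligase HUWE1 (0.27) lost its call when any of the 6 libraries was left out, with adjusted p up to 0.129 in edgeR, and its difference turned to -0.02 with the offset for length and GC content (adjusted p = 0.847). The PP2A subunit PPP2R5A (-0.26) lost its call in 5 of 6 fits without a library, all but that without control replicate 2, with adjusted p up to 0.0843 in edgeR. AURKA (0.22) and AXIN1 (-0.22) did not pass. The list gave 2 higher and 1 lower with that offset, with a median of -0.02, and 6 higher and 0 lower with library totals.

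Genes that MYC is known to activate moved both ways. Of 33 listed, 32 were tested, 6 rose and 8 fell, with a median log2 difference of -0.09. TFRC, the transferrin receptor gene, had 163, 140 and 181 CPM in the controls and 351, 336 and 394 CPM in siFTO. Every siFTO library was far above every control, and TFRC rose by 1.16 on the log2 scale (SE 0.11, adjusted p = 0.000208, edgeR with Benjamini-Hochberg adjustment). POLR1B, a subunit of RNA polymerase I, rose by 0.50 (SE 0.10, adjusted p = 0.00432 in edgeR). SHMT2, the mitochondrial serine hydroxymethyltransferase gene, had 596, 611 and 541 CPM in the controls and 344, 360 and 364 CPM in siFTO. Its groups were well apart, and SHMT2 fell by 0.71 on the log2 scale (SE 0.08, adjusted p = 0.000579, edgeR with Benjamini-Hochberg adjustment). The transcription factor TFAP4 fell by 0.65 (SE 0.10, adjusted p = 0.00138 in edgeR) and the nucleolar methyltransferase FBL by 0.61 (SE 0.11, adjusted p = 0.00231 in edgeR). Other nucleolar genes of the list, NCL and NPM1, its most abundant, had 0.03 and -0.07 and did not pass.

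The activated genes HK2 (0.39), NOLC1 (0.37) and TERT (-0.54) were called less firmly. HK2 and TERT lost the call in 5 of 6 fits without a library, all but that without siFTO replicate 6, with adjusted p up to 0.114 and 0.100 in edgeR. NOLC1 did so without control replicates 1 or 2 or siFTO replicate 4, with up to 0.102. With library totals 7 activated genes were called higher and 4 lower, and with the offset for length and GC content 4 and 7. Without siFTO replicates 4 and 5 together, the median log2 difference of the activated genes was -0.001, and FBL had -0.49.

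Of 8 genes that MYC is known to repress, 7 were tested, 3 rose and 2 fell, with a median log2 difference of 0.26, and the 3 inhibitors of cyclin-dependent kinases among them did not move together. CDKN1A, which encodes p21, had 181, 177 and 161 CPM in the controls and 325, 379 and 319 CPM in siFTO. The groups did not overlap, and CDKN1A rose by 0.98 on the log2 scale (SE 0.10, adjusted p = 0.000267, edgeR with Benjamini-Hochberg adjustment). CDKN1C, which encodes p57, had 10.7, 11.9 and 9.82 CPM in the controls and 3.96, 3.61 and 4.30 CPM in siFTO. This fall of 1.45 on the log2 scale (SE 0.16, adjusted p = 0.000509 in edgeR) again left a gap between the groups. CDKN1B, which encodes p27, fell by 0.49 (SE 0.08, adjusted p = 0.00226 in edgeR). The stress gene GADD45A had 47.5, 52.6 and 42.2 CPM in the controls and 79.7, 85.4 and 48.5 CPM in siFTO. High values lay in siFTO replicates 4 and 5 alone, and its difference of 0.59 (adjusted p = 0.0294 in edgeR) was 0.03 without both of them. GADD45A lost the call in 5 of 6 fits without a library, all but that without siFTO replicate 6, with adjusted p up to 0.161 in edgeR. NDRG1 (0.47) lost it without control replicates 2 or 3 or siFTO replicates 4 or 5, with up to 0.117, while GADD45B (0.26) and NDRG2 (-0.12) did not pass. GADD45B had 61.3, 70.4 and 32.4 CPM in siFTO replicates 4, 5 and 6, against 39.7 to 51.2 CPM in the controls. Its difference was 0.51 without siFTO replicate 6 (adjusted p = 0.00289 in edgeR) and -0.50 without siFTO replicates 4 and 5.

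Targets of MLX with MLXIP or MLXIPL gave 0 calls higher and 1 lower among 5 tested of 6 listed, with a median log2 difference of -0.12. This was ACACA, a rate-limiting enzyme gene of fatty acid synthesis (-0.24, SE 0.09, adjusted p = 0.0492, edgeR with Benjamini-Hochberg adjustment). Its call ended without control replicates 1 or 3 or siFTO replicates 4 or 5, with adjusted p up to 0.157. FASN had -0.02 and did not pass. TXNIP, a glucose-induced gene that limits glucose uptake, had 113, 115 and 96.6 CPM in the controls and 103, 114 and 57.4 CPM in siFTO. Replicate 6 of siFTO stood far below all other libraries, and the TXNIP difference was -0.24 (adjusted p = 0.366 in edgeR) with all libraries and -0.91 (adjusted p = 0.00459 in edgeR) without siFTO replicates 4 and 5.

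**Figure D4:**
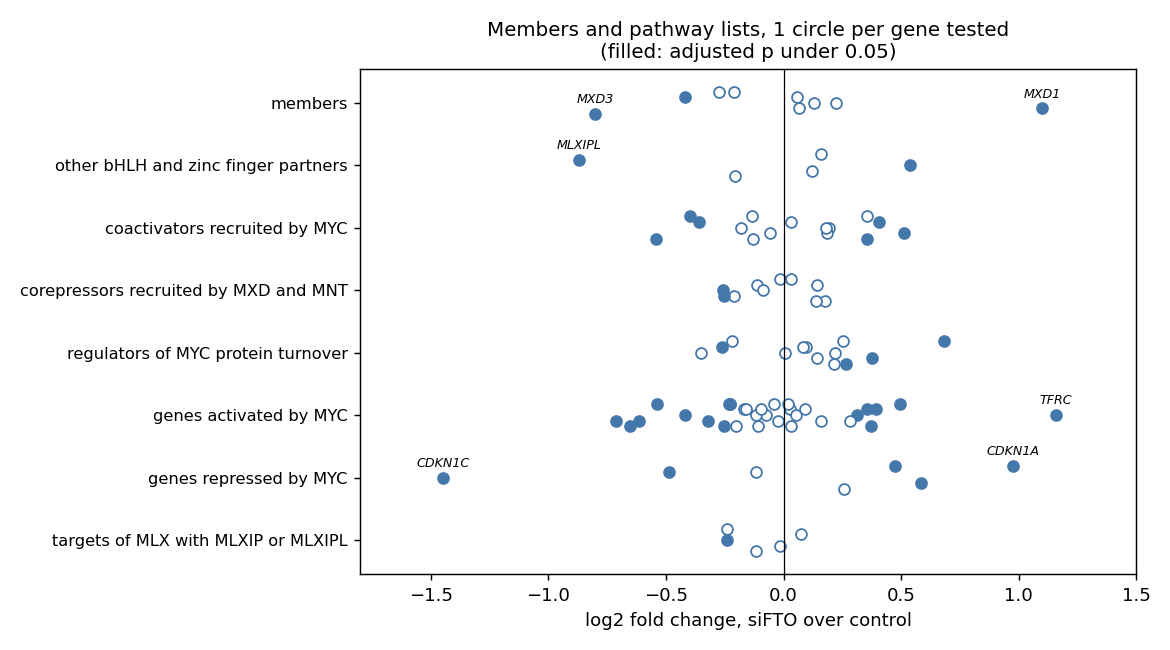
Log2 difference, siFTO minus control, of each tested gene among the members and 7 lists around the network, with filled circles where the adjusted p in the edgeR test was under 0.05 and a vertical line at 0. Filled circles stood on both sides of 0 in the activated list (6 higher, 8 lower) and in the repressed list (3 higher, 2 lower), and the list medians lay between -0.12 and 0.26.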

How the data were processed

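RNA-seq of 253J cells was taken from 6 libraries, 3 control and 3 siFTO, grouped by their labels. The authors deposited 1 file of raw counts of reads per gene for each library, with 60483 gene IDs, no lines for unassigned reads and 0 columns of no sample. TopHat2 2.0.11 and HTSeq, with builds hg19 and GRCh37, are listed in the submitters' processing notes. Which HTSeq version, annotation and strand option were used is not given in the sources used here. Total counts, from 10991789 to 19891269, limit the precision for genes as low as MYCN.

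Counts were filtered (filterByExpr, minimum count 10, minimum total 15), scaled by TMM and tested two-sided with the quasi-likelihood test of edgeR 4.0.16 in R 4.3.3, with the group as the only term. Benjamini-Hochberg adjustment covered all 14965 tested genes, the threshold was 0.05, and the standard error is the log2 difference divided by the square root of F. IDs were matched without version to symbols (93.1%) and to GENCODE 29 on GRCh38 for lengths and positions, which leaves the counting build unsettled. The test was run on simulated data, where it made more false calls than the threshold states. Alternatives were RLE, upper-quartile and total-count scaling, 2 other filters, DESeq2 1.42.0, limma 3.58.1 (voom), an offset for length and GC content, a threshold of 0.01 and leaving out each library or siFTO replicates 4 and 5.

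The members, lists and alternatives were chosen with earlier results of these data known. Named were all members, FTO, up to 4 called genes of each list and direction by size of change and up to 2 uncalled by CPM, the 2 highest of each marker list, and the 3 genes nearest in profile to the called member of highest CPM in each direction, among genes with a mean log2 CPM of at least 3 and with 0.5 added to CPM. A gene first placed in the turnover list is not reported here, and the counts and median of that list leave it out.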

Additional observations from a re-analysis of the deposited data

How the results depend on the processing

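Of the members, MXD1 and MXD3 kept their direction and passed the threshold under all 16 alternatives. The reported fit called 2913 genes higher and 2684 lower, and 1 member higher and 2 lower. Library totals in place of TMM, which raised the median log2 difference by 0.12 and the share of calls that were higher from 52.0% to 69.6%, gave 1787 genes lower, 2 members higher (MXD1, MAX) and 1 lower (MXD3). An offset for length and GC content moved that share to 41.4%, and no filter on low counts to 61.4%. A single member, MXD3, was called lower with no filter, with DESeq2, at a threshold of 0.01 and without siFTO replicates 4 and 5. The threshold of 0.01 gave 1411 genes higher and 1338 lower by its construction, and leaving out siFTO replicates 4 and 5 gave 970 higher and 926 lower with fewer samples. Leaving out 1 library gave from 1383 (without control replicate 1) to 3826 (without siFTO replicate 6) genes higher, from 1589 (without siFTO replicate 4) to 2928 (without siFTO replicate 6) lower, and 1 to 2 members lower. For the changes under other scalings, filters and tests the cause was not tested. The ratio of antagonists to the MYC family, siFTO mean over control mean, was 1.03 and ranged from 0.972 to 1.14 without 1 library, with 1.04 from counts not divided by length. MYCL, which was called, and MAX and MXD4, which were not, lay near the threshold, with log2 differences of -0.42, 0.22 and -0.27. The few counts of MYCN limit any statement on it. No paired analysis was possible because the groups share no replicate number.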
